A study of Mus musculus with 8 samples.

Results

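The pre-B cell receptor (pre-BCR) signalling kinases and adaptors examined here are 9 genes, Blk, Lyn, Syk, Btk, Blnk, Pik3ap1, Pik3cd, Plcg2 and Prkcb, taken by name as cytoplasmic components of the pathway. All 9 were found among the 27179 gene identifiers of the count table, and all 9 passed the filter on low counts in every comparison. RNA was sequenced from B220+ progenitors sorted from the bone marrow of young adult mice as pre-proB, proB and preB cells, with 2 libraries in each of 4 groups. Pre-proB, proB and preB cells came from Rag1Cre+/+;Erg fl/fl mice, the controls, which carry loxP-flanked Erg alleles and no Cre. The fourth group was the pre-proB population sorted from mice of genotype Rag1Cre T/+;Erg Δ/Δ. Cre under Rag1 control removes Erg, an ETS family transcription factor, from their lymphoid progenitors onwards. Cre and the loss of Erg therefore differed together between the genotypes, and later stages of the deficient mice were not analysed here. Levels are CPM, counts scaled to a common library size after TMM scaling, or FPKM, CPM divided by exon length in kilobases, where genes are compared with each other.

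The pre-BCR is assembled at the proB to preB transition from the immunoglobulin μ heavy chain, the surrogate light chain proteins encoded by Igll1, Vpreb1 and Vpreb2, and the signalling chains encoded by Cd79a and Cd79b. Src family kinases phosphorylate the signalling chains, Syk docks on them and phosphorylates the adaptor Blnk (SLP-65), and Blnk brings Btk to its substrate Plcg2. Phospholipase Cγ2 produces the messengers that release calcium and activate protein kinase C, while Pik3ap1 (BCAP) helps to recruit phosphoinositide 3-kinase.

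On GRCm38.p6 the genes span chr14:63372837-63417187 (Blk), chr4:3678068-3791612 (Lyn), chr13:52582610-52648792 (Syk), chrX:134542334-134583628 (Btk) and chr19:40928927-40994221 (Blnk). Pik3ap1 spans chr19:41272541-41385102, Pik3cd chr4:149649168-149702566, Plcg2 chr8:117498275-117635142 and Prkcb chr7:122289104-122634402, and reads were counted over their exons.

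The 8 libraries held between 15565381 and 18457632 assigned counts, and the lowest count of any of the 9 genes in a library was 1102. Erg was at 69.1 and 25.3 CPM in control pre-proB cells, 144 and 127 CPM at the proB stage, then 19.6 and 28.7 CPM at the preB stage, against 2.50 and 2.58 in the Erg-deficient libraries. The sorted pre-proB libraries of both genotypes carried abundant transcripts of plasmacytoid dendritic cells: 8 such genes, none without counts in any group, summed to 12778 and 13955 CPM in control pre-proB cells and 14773 and 15468 in Erg-deficient ones, against 610 to 975 in proB and preB cells. Siglech alone, a defining gene of those cells, was at 3856 and 3825 CPM in the controls and 3953 and 4507 in the Erg-deficient libraries. The 9 B lineage markers summed to 1491 and 587 CPM in the control pre-proB libraries and to 81.3 and 88.2 in the Erg-deficient libraries, so the control libraries differed from each other in these genes and both exceeded the deficient ones. The 8 T cell markers summed to 627 and 779 CPM in the controls and 1433 and 787 in the deficient libraries, of which Cd4 was 474 and 614 against 1214 and 623, so that only the first deficient library stood apart. The T cell receptor complex genes Cd3e, Cd3d, Cd3g and Trac were between 4.62 and 8.51 CPM in all 4. The 8 NK cell markers summed to 215 and 221 CPM against 279 and 407, with Klrd1 at 174 and 174 against 164 and 220. Of these, 4 rose in the edgeR test described next, Ncr1, Gzma, Prf1 and Klrk1, with Ncr1 going from 2.12 and 2.92 to 15.1 and 26.0 CPM and Gzma from 1.80 and 4.19 to 18.1 and 36.7 CPM. The sort gate of all stages left out cells stained for the products of Klrb1c (NK1.1) and Itgax (CD11c). Itgax was still at 326 and 405 CPM in control pre-proB cells and 384 and 453 in Erg-deficient ones, and Klrb1c at 11.1 and 7.78 against 20.8 and 34.9. Counts of Xist and of 4 Y-linked genes were present in every library. In bulk RNA, fewer cells of a type and less RNA per cell cannot be told apart.

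None of the 9 genes was called between Erg-deficient and control pre-proB cells, while 5 of 7 genes listed as receptor chains fell. The 7 are Ighm, Igll1, Vpreb1, Vpreb2, Vpreb3, Cd79a and Cd79b. Vpreb3 is not among the pre-BCR chains named above, and it is among those that fell. The test was edgeR's quasi-likelihood test over 13005 genes with Benjamini-Hochberg adjustment, a gene being called at an adjusted p below 0.05, and 1.16% of all genes tested were called. The log2 fold changes of the 9 genes lay between -0.30 and 0.17 with a median of -0.04, beside a median of 0.01 over all genes tested. At an unadjusted p below 0.05 were 3 of the 9, Blk, Lyn and Blnk, beside 1624 of the 13005 genes tested (12.5%), and DESeq2 and limma-voom also called 0 of the 9.

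Blk, a Src family kinase of the B lineage, was at 88.5 and 84.8 CPM in the control libraries and 68.9 and 73.3 in the Erg-deficient ones. Both deficient libraries were below both controls, and the difference was -0.30 on the log2 scale (95% interval -0.46 to -0.13, adjusted p = 0.121 by edgeR's quasi-likelihood test). Lyn, the Src family kinase that also starts inhibitory signals, was at 341 and 377 CPM in the controls and 418 and 398 in the deficient libraries, which were both higher. Its difference was 0.17 (95% interval 0.01 to 0.34, adjusted p = 0.389 by the edgeR test). Syk, the kinase that binds the phosphorylated receptor chains, was at 816 and 781 CPM in the controls and 775 and 816 in the deficient libraries. These libraries overlapped, and the log2 interval of -0.19 to 0.16 bounds the difference on both sides.

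Blnk, the scaffold of Btk and phospholipase Cγ2, was at 396 and 345 CPM in the controls and 323 and 316 in the deficient libraries. Both deficient libraries were lower, by -0.23 on the log2 scale (95% interval -0.44 to -0.02, adjusted p = 0.357 by the edgeR test). Btk, the Tec family kinase, was at 138 and 129 CPM against 125 and 125, a log2 difference of -0.11 (95% interval -0.27 to 0.06). Leaving out the first control library gave log2 differences of -0.11 for Blnk, -0.04 for Btk and 0.11 for Lyn, and leaving out the second gave -0.35 for Blnk and -0.18 for Btk, none of them called. The remaining members had 95% intervals of -0.10 to 0.29 for Pik3ap1, -0.18 to 0.15 for Pik3cd, -0.21 to 0.08 for Plcg2 and -0.20 to 0.12 for Prkcb on the log2 scale. Pik3ap1, Pik3cd and Prkcb overlapped between the genotypes, and Plcg2 was at 336 and 349 CPM against 333 and 326.

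**Figure D1:**
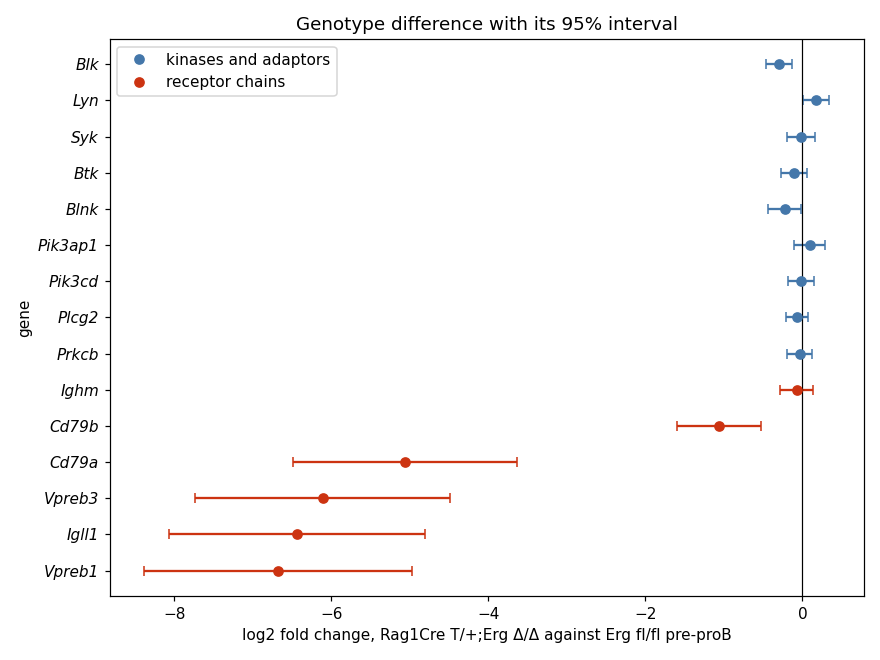
Log2 fold change of Rag1Cre T/+;Erg Δ/Δ against Erg fl/fl pre-proB cells (x axis) for the 9 kinases and adaptors (blue) and 6 genes listed as receptor chains, Vpreb3 among them (red), with points for the estimate and bars for the 95% interval. The 9 genes lie between -0.30 and 0.17, Ighm at -0.07 and Cd79b at -1.06, both not called, and Vpreb1 at -6.68. Vpreb2, with 1 and 2 counts in the deficient libraries, is not drawn.

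Among the receptor chains, 5 of 7 were lower in Erg-deficient cells, with a median log2 fold change of -6.11. Igll1, a surrogate light chain gene, was at 249 and 84.7 CPM in the controls and 1.44 and 2.45 in the deficient libraries, a log2 change of -6.44 (adjusted p = 0.0178, edgeR quasi-likelihood test). The first control library was above the second in all 7 chains, by a median ratio of 2.80, while for the 9 kinases and adaptors the same ratio ran from 0.905 to 1.15. The B lineage and NK marker sums given above moved with this comparison. The T sum did so in 1 of the 2 deficient libraries, mostly through Cd4, while Cd3e, Cd3d, Cd3g and Trac did not set that library apart. The part of any of these cell types in the results was not tested.

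Over 8 lists of further pathway genes, 114 genes passed the filter, of which 8 were lower and 0 higher in Erg-deficient cells. This was 7.02% called, beside 1.16% of all genes tested. Of the 8, 5 were the receptor chains already given. The lists of coreceptors, further adaptors and signalling brakes held 1 each. Beside the receptor chains the 8 lower genes included Gab1, a docking adaptor, at -2.53 (adjusted p = 0.0488), and Dok3, an inhibitory adaptor, at -2.98 (adjusted p = 0.023), both by the edgeR test. The lists of other tyrosine kinases, phosphoinositide 3-kinase subunits, calcium and NF-κB signalling genes and MAP kinases held 0 called genes by that test, with list medians between 0.01 and 0.15. Single genes ran from -0.63 to 1.32, -1.92 to 0.13, -0.92 to 0.41 and -0.09 to 0.16 in these lists, in that order. With 1.16% of all genes called, 0 calls in lists of this size do not show that their genes were unchanged.

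The stage comparisons were made in the 6 control libraries, whose pre-proB libraries are those of the genotype comparison, over 13650 genes by the same edgeR test. From pre-proB to proB, 3 of the 9 genes rose, 3 fell and 3 were not called, against 73.0% of all genes tested that were called, 36.2% higher and 36.8% lower. From proB to preB, 7 rose, 0 fell and 2 were not called, where 58.9% of all genes were called and 29.0% were higher. Their median log2 change was 0.14 at the first step and 0.44 at the second, beside medians of 0.00 for all genes at each step. Pre-proB libraries held far more dendritic cell transcripts than the later stages, and the 8 proliferation markers summed to 1173 and 1327 CPM in pre-proB, then 5666 and 5455 CPM for proB, and lastly 4245 and 3472 CPM for preB libraries. The part of either in these results was not tested.

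**Figure D2:**
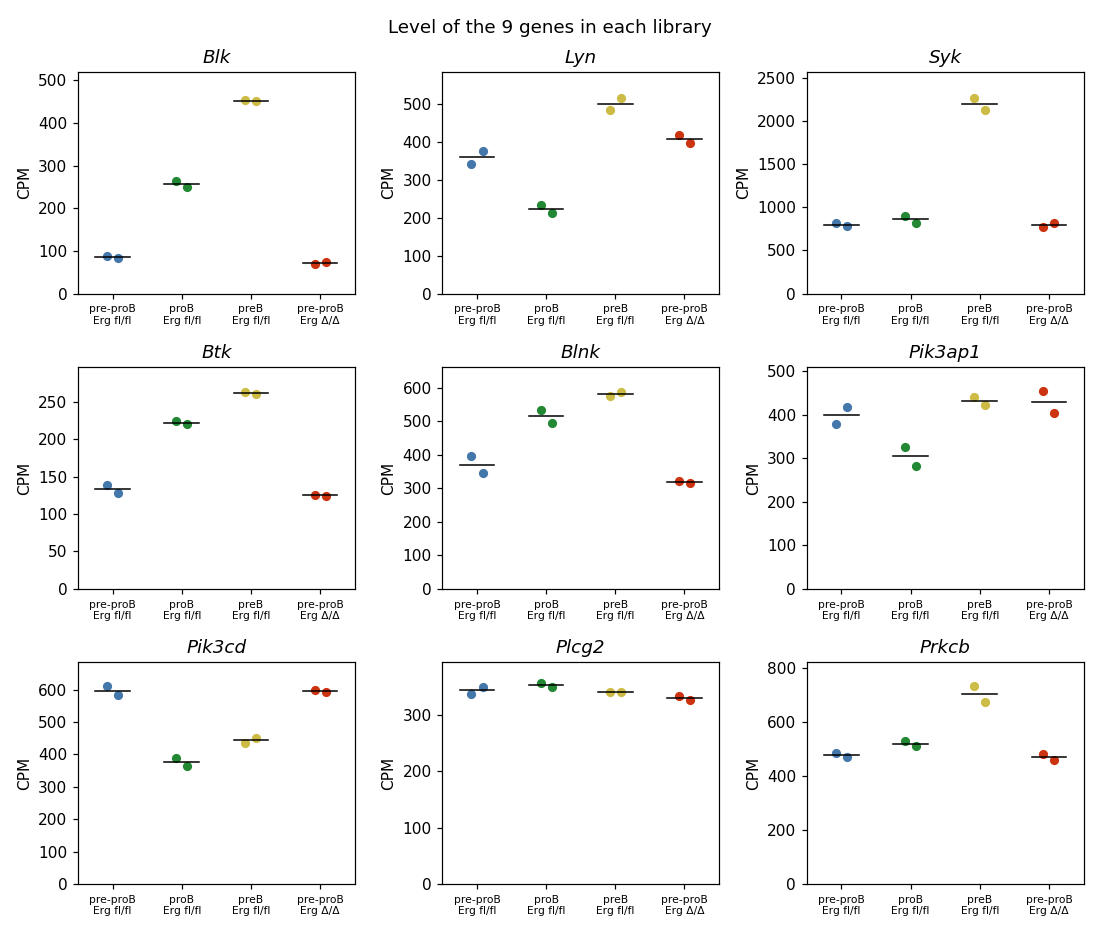
Level of each of the 9 genes in CPM (y axis, from 0) in each library, by group on the x axis, with a point for each of the 2 libraries and a line at their mean. Blk rises at each step from 86.6 to 257 to 453 CPM on average, and Plcg2 stays between 326 and 356 CPM in all 8 libraries.

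Blk rose at both steps. The pre-proB libraries held 88.5 and 84.8 CPM, the proB libraries 264 and 249 CPM, and the preB libraries 453 and 452 CPM, so that no stage overlapped another. Its log2 change was 1.60 ± 0.07 (SE, adjusted p = 1.05e-07) at the first step and 0.83 ± 0.06 (adjusted p = 1.67e-05) at the second by the edgeR test. Lyn went down and then up, with pre-proB libraries at 341 and 377 CPM, proB libraries at 233 and 212 CPM, and preB libraries at 483 and 515 CPM. The first change was -0.66 ± 0.08 (adjusted p = 0.000104, edgeR) and the second 1.17 ± 0.08 (adjusted p = 1.28e-05, edgeR).

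Syk levels were 816 and 781 CPM for the pre-proB libraries, then 904 and 818 CPM for the proB libraries, a difference that did not pass (0.14 ± 0.08, adjusted p = 0.128, edgeR). It then stood at 2259 and 2121 CPM in preB cells, a rise of 1.35 ± 0.08 on the log2 scale (adjusted p = 5.97e-06, edgeR), or 2.54 times proB. Both preB libraries were far above every other library. By FPKM, Syk was the highest of the 9 genes in both preB libraries, at 241 and 227.

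Btk levels were 138 and 129 CPM before the first step, 224 and 220 CPM after it, and 263 and 261 CPM after the second, with no overlap. Most of its rise fell at the first step, which was 0.77 ± 0.06 (adjusted p = 5.91e-06, edgeR) against 0.25 ± 0.06 at the second (adjusted p = 0.00786, edgeR). Blnk was at 396 and 345, 533 and 495, and 576 and 587 CPM in the same order, rising by 0.51 ± 0.08 at the first step (adjusted p = 0.000517, edgeR). Its second step was 0.19 ± 0.08 and did not pass (adjusted p = 0.0787, edgeR), although both preB libraries were above both proB libraries.

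Blnk and Btk rose at the first step and were not called on loss of Erg, whereas Cd79a rose at the first step and fell on loss of Erg. The RefSeq windows of 300 bases around a transcription start of these genes (GRCm38.p6, 5′ to 3′ on the gene's strand) are shown to set the letters of these genes side by side, with the ETS core GGAA, or its reverse complement TTCC, in capitals. Btk is at chrX:134583091-134583390 on the minus strand, Blnk at chr19:40994172-40994471 on the minus strand and Cd79a at chr7:24897247-24897546 on the plus strand.
Btk: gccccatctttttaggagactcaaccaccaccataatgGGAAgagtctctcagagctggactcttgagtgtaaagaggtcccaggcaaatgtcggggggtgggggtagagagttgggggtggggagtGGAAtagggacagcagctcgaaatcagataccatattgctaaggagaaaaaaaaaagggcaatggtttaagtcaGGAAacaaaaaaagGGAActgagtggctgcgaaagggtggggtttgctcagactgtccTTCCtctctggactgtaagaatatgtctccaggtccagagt
Blnk: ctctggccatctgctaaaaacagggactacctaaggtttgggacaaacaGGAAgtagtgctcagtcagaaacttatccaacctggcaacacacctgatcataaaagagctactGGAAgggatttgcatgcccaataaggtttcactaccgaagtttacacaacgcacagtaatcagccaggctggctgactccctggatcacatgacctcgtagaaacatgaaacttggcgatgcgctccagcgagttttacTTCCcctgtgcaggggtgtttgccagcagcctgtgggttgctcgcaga
Cd79a: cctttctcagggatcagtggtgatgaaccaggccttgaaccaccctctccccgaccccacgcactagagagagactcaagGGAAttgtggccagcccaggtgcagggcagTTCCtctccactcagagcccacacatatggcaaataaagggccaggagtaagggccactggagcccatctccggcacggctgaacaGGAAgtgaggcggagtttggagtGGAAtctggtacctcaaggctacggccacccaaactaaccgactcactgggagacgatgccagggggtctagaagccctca
Btk held 5 matches, Blnk 3 and Cd79a 4. Of 32851 such windows in the table, 96.0% held at least 1 match and the median was 3, so the letters alone do not set these genes apart. Windows were found for 7 of the 9 members, 10 in all, of which 8 held a match. The counts describe letters and are no measure of binding.

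Pik3ap1, the adaptor that couples the receptor to phosphoinositide 3-kinase, started at 379 and 418 CPM, dropped to 325 and 284 CPM at the proB stage, and reached 442 and 422 CPM at the preB stage. It fell by 0.36 at the first step (adjusted p = 0.00517, edgeR) and rose by 0.51 at the second (adjusted p = 0.00111, edgeR). Pik3cd, the p110δ catalytic subunit, was at 610 and 582, 388 and 365, and 435 and 451 CPM. It was lowest in proB cells and fell by 0.63 at the first step (adjusted p = 4.18e-05, edgeR), then rose by 0.24 (adjusted p = 0.0144, edgeR), and preB cells stayed below pre-proB cells.

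Plcg2, phospholipase Cγ2, had pre-proB values of 336 and 349 CPM, proB values of 356 and 348 CPM, and preB values of 340 and 340 CPM. It was not called in any comparison, and its 95% log2 interval from pre-proB to preB was -0.11 to 0.17. Prkcb, protein kinase Cβ, was at 484 and 472, 528 and 509, and 732 and 672 CPM. Its second step passed at 0.44 ± 0.07 (adjusted p = 0.000819, edgeR) and its first did not (0.15 ± 0.07, adjusted p = 0.0821, edgeR).

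**Figure D3:**
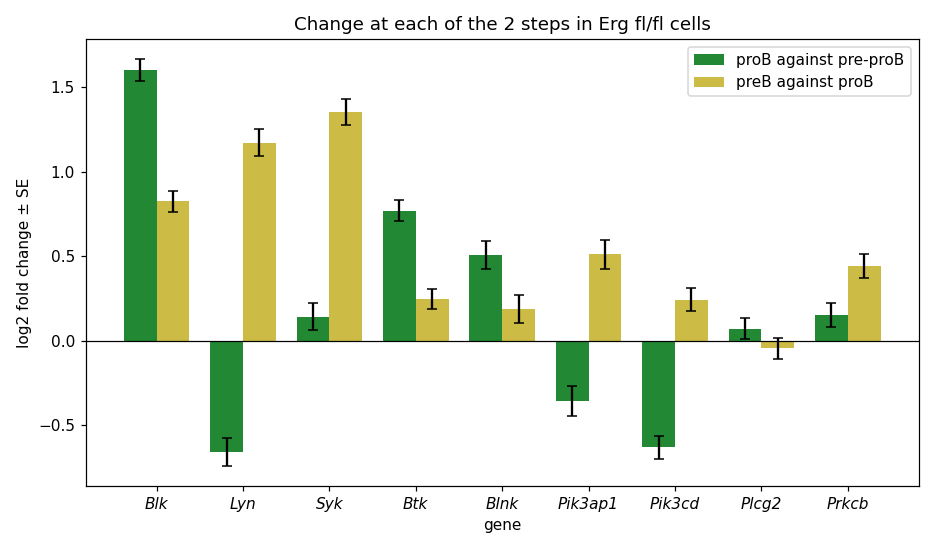
Log2 fold change at each step in Erg fl/fl cells (y axis) for the 9 genes (x axis), with green bars for proB against pre-proB, yellow bars for preB against proB, and error bars for the SE. Blk has its larger change at the first step (1.60), and Syk (1.35) and Lyn (1.17) have theirs at the second.

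The second step minus the first was tested directly, a comparison chosen after the data were seen, in which 64.6% of all genes were called. The difference was higher for Lyn (1.83), Syk (1.21), Pik3cd (0.87) and Pik3ap1 (0.87) and lower for Blk (-0.77) and Btk (-0.52), all 6 passing the edgeR test with adjusted p between 1.06e-05 and 0.00223. Blnk, Plcg2 and Prkcb were not called. From pre-proB straight to preB, 6 of the 9 rose, Pik3cd fell and 2 were not called, against 70.7% of all genes called, 36.5% higher and 34.1% lower. Blk rose most, by 2.43, followed by Syk at 1.5 and Btk at 1.01.

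Per length, the order of the 9 genes changed with stage. Blk was lowest in all 4 pre-proB libraries at 25.5 to 32.8 FPKM and highest in both proB libraries at 97.9 and 92.4, where Syk was close behind at 96.6 and 87.4. Pik3cd was highest in the control pre-proB libraries at 97.5 and 93.0 FPKM and lowest in both preB libraries at 69.5 and 72.1. The 9 genes summed to 621 and 617 FPKM for the control pre-proB libraries, 684 and 641 for proB, 1031 and 1016 for preB, and 623 and 607 for the Erg-deficient pre-proB libraries. The preB sums stood above all others, and the Erg-deficient and control pre-proB sums overlapped.

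Blk and Lyn were set beside 5 other Src family kinases, Fyn, Fgr, Lck, Src and Yes1. Fyn was at 211 and 216 FPKM and Fgr at 127 and 137 in control pre-proB cells, both above Lyn at 83.7 and 92.5. These 7 kinases summed to 470.0 and 496 FPKM there, of which Blk was 6.98% and 6.34%. In proB cells Blk was 47.9% and 47.0% of this sum and in preB cells 54.4% and 52.7%, so its share was high at both later stages and low in pre-proB cells of either genotype (4.84% and 5.24% without Erg). Lyn was 17.8% and 18.6% of the sum at the control pre-proB stage, 28.0% and 26.5% for proB, and 38.4% and 39.8% for preB libraries. Fyn fell by 3.27 at the first step (adjusted p = 5.17e-09, edgeR).

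**Figure D4:**
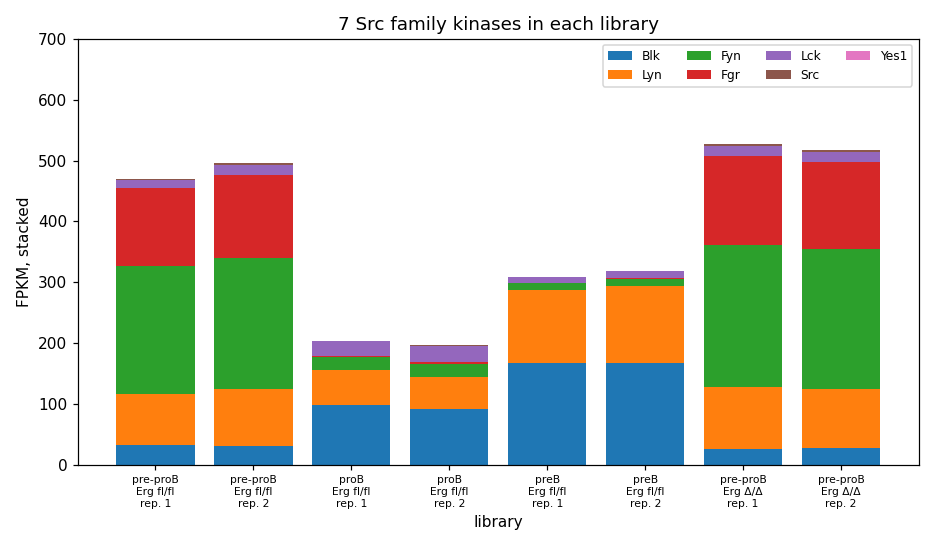
Stacked FPKM (y axis) of 7 Src family kinases in each of the 8 libraries (x axis), 1 bar a library and 1 colour a kinase. Blk takes 6.98% and 6.34% of the control pre-proB bars and 47.9% and 47.0% of the proB bars, and the Erg-deficient bars have the make-up of the control pre-proB bars.

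Other members have relatives used by T cells or other blood cells. Zap70, the relative of Syk, stayed between 4.82 and 18.9 CPM in all libraries, under every Syk value. Bank1, a B cell scaffold related to Pik3ap1, was at 8.02 and 6.93 CPM in control pre-proB and 41.4 and 47.6 in preB cells. Pik3cg, the relative of Pik3cd, rose by 0.68 at the second step (adjusted p = 3.01e-05, edgeR), as Pik3cd did by 0.24. Over all 8 pathway lists at the second step, 59 of 115 genes rose (51.3%) and 28 fell (24.3%), where 29.0% of all genes tested rose and 29.9% fell. The lists differed, with 10 of 12 phosphoinositide 3-kinase genes higher and 1 lower, and 16 of 26 calcium and NF-κB genes higher and 6 lower. Of 17 genes listed as signalling brakes, 10 were higher and 5 lower. The coreceptor list, which holds inhibitory receptors too, had 6 of 9 higher and 0 lower. Of 22 further adaptors, 9 were higher and 6 lower. By contrast, 2 of 10 other tyrosine kinases were higher and 4 lower, and 2 of 7 receptor chains higher and 3 lower. Of 12 MAP kinase genes, 4 were higher and 3 lower. At the first step 41 of the 115 rose (35.7%) and 50 fell (43.5%), where 36.2% of all genes tested rose and 36.8% fell.

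The profile of each gene over the 8 libraries was compared with those of 10321 others, as the root-mean-square difference of log2(CPM + 0.5) centred on each gene's mean. Nearest to Blk were Zfp821 (0.114), Hdac8 (0.12) and Sox4 (0.127), and to Syk Mindy2 (0.0561), Trim11 (0.0692) and Txndc11 (0.0821). Lyn was nearest to Tubb2b (0.0858), Btk to Kansl2 (0.0271), Blnk to Zswim3 (0.0524) and Pik3ap1 to Tbc1d8b (0.038). Pik3cd was nearest to Use1 (0.0399), Plcg2 to Dnm1l (0.0255) and Prkcb to Heca (0.027). No member was among the 3 nearest genes of another.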

How the data were processed

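Sequencing libraries of polyadenylated RNA were paired-end. Per the study's methods and the submitters' processing notes, the authors called bases with CASAVA 1.8.2, trimmed adapters with Trim Galore, used STAR for alignment to mm10 and featureCounts for assignment to Entrez Gene entries. The strand setting is not given in the sources used here, and RefSeq models overlap Blk, Lyn, Pik3ap1, Pik3cd and Prkcb. The deposited values are raw counts, not normalized, of 15565381 to 18457632 per library. Gene symbols came from RefSeq (GRCm38.p6), and 1904 of 27179 identifiers had none.

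Counts were tested with edgeR 4.0.16 (quasi-likelihood F-test, TMM) in R 4.3.3, keeping genes that reached 0.5 CPM in 2 or more libraries, with Benjamini-Hochberg adjustment over all genes and calls below 0.05. The genotype fit used the 4 pre-proB libraries and the stage fit the 6 control libraries. DESeq2 1.42.0, limma 3.58.1 and other filters and scalings were alternatives. FPKM used the summed exon lengths of GENCODE annotation. Figures were drawn with matplotlib 3.10.9. The fits were tested on simulated data. Replicates differed beyond sampling noise, and p-values measure only the spread between these samples. With 2 libraries a group, an exact permutation test of a single gene could not go below p = 0.33, so the fit across all genes was used. Deviations of libraries with the same replicate number correlated at -0.0353 to 0.15, not all above 0.1, so the numbers were not taken as pairs.

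The members and lists were chosen with earlier results of these data known. All members were named, with up to 4 called genes of lowest p per pathway list as the pool for others, their named relatives, the 3 nearest genes and Erg. Each promoter letter match was counted on both strands. Some genes that the naming rule gives are not reported here.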

Additional observations from a re-analysis of the deposited data

How the results depend on the processing

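The number of the 9 genes called was 0 between genotypes under all 16 alternatives, 6 to 8 from pre-proB to proB, 5 to 8 from proB to preB, 7 from pre-proB to preB and 6 to 8 for the difference of the steps, each under 18 alternatives. Between genotypes, the log2 fold change of Blk was negative under all 16, from -0.350 to -0.254. Scaled by total counts, its adjusted p by the edgeR test was 0.0961, against 0.121 in the main fit. Without proB replicate 1, proB replicate 2 or preB replicate 2, Btk and Pik3cd lost their calls at the second step, leaving 5. Of 792 fold changes of single genes under an alternative, 757 kept direction and side of the threshold, 6 lost and 18 gained a call, and 11, none of them called, changed sign. These were Syk and Pik3cd between genotypes and Plcg2 between stages. Syk ran from -0.0699 to 0.0248 and Pik3cd from -0.0692 to 0.0304 with 1 library left out (sign changed without the first control library, and for Syk also at 0.0186 without the first deficient library). Plcg2 from pre-proB to proB ran from -0.00774 to 0.0900 with 1 library left out. From pre-proB to preB it ran from -0.0647 to 0.0420 with 1 left out, and was -0.00740 with DESeq2 size factors, -0.0255 with no filter, -0.00536 at a minimum of 1 CPM, -0.00745 by DESeq2 and -0.0124 with all 8 libraries in one fit. The cause was not tested. Calls over all genes between genotypes moved from 151 to 400 by DESeq2, 41 by limma-voom, 442 with all 8 libraries, 279 with no filter, 88 by the later quasi-likelihood method and 10 to 401 with 1 library left out. A replicate block, for numbers that were not shown to pair the samples, gave 265 calls over all genes and 0 of the 9 between genotypes, and 7, 8, 7 and 8 of the 9 in the stage comparisons in the order above.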
